A study of Mus musculus with 8 samples.

Results

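The Ifi200 family, also called the PYHIN or AIM2-like receptor family, is a group of interferon-inducible genes that lie side by side on mouse chromosome 1. The members described here are Ifi203, Ifi204, Ifi205, Ifi209, Ifi211, Ifi213, Mndal and Aim2. They were chosen because earlier results of these data had shown that their signals split among the Yaa arrays, so their values are given as a description, with no test. A probe set was taken where the platform annotation mapped it to 1 gene symbol and that symbol was a member's. That gave 9 probe sets of 6 genes out of 45101 probe sets on the array. Ifi205 and Ifi211 had no probe set of their own and were seen only through probe sets shared with other genes.

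Most proteins of the family carry a pyrin domain, which binds other pyrin domains, and a HIN domain, which binds double-stranded DNA. AIM2 recognises DNA in the cytosol and recruits the adaptor ASC, encoded by Pycard, to activate caspase-1 and release interleukin-1β and interleukin-18. IFI204 is a mouse sensor related to human IFI16 and has been linked to STING-dependent interferon production, and several other members are nuclear proteins whose roles in sensing are less well known. In the spleen the genes are transcribed in lymphocytes and in myeloid cells, and interferon raises their transcription.

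The study measured total RNA of spleen cells from 8-week-old male mice on Affymetrix expression arrays, with 4 samples in each of 2 groups. The Yaa group came from B6.SB-Yaa/J males, whose Y chromosome carries the Yaa mutation, known as a copy of a distal X segment that includes Tlr7, on a C57BL/6-related background. The WT group came from C57Bl/6J males. All spleens were made into cell suspensions and their red cells were lysed. Yaa 3 was a pool of 2 spleens and every other sample came from a single spleen, with samples numbered Yaa 1 to 4 and WT 1 to 4 after their labels. The genotype of the family's cluster in these mice was not analysed here.

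Of the Yaa arrays, 2 stood apart. On the first principal component Yaa 3 lay at 92.4 and Yaa 2 at -68.8, with the other 6 arrays between them. The mean of 9 tested B cell markers was 5.57 in Yaa 3, against 10.20, 10.94 and 10.29 in Yaa 1, 2 and 4 and between 10.31 and 10.66 in WT, on the log2(signal + 16) scale used throughout. Named after their values were seen, Ms4a1, encoding CD20, was the lowest of the B cell markers in Yaa 3 at 4.08, close to 4, the lowest value this scale allows, and Cd37 the highest at 7.25. The mean of 8 tested T cell markers was 5.30 in Yaa 3, between 8.55 and 9.41 in the other Yaa arrays and between 8.37 and 8.85 in WT. In Yaa 2 the mean of 7 tested erythroid markers was 10.35, whereas it lay between 12.06 and 12.32 in the other Yaa arrays and between 12.01 and 12.28 in WT. The mean of 12 neutrophil markers was 10.70, 8.37, 10.24 and 9.62 in Yaa 1 to 4 and between 7.97 and 8.70 in WT. Results for the members are therefore given array by array, and mean differences also without Yaa 2 and without Yaa 3. In whole-spleen RNA, fewer cells of a type and less RNA per cell cannot be told apart.

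Across all arrays, limma with Benjamini-Hochberg adjustment called 1 of 22518 tested probe sets at an adjusted p under 0.05 (0.00444%), a probe set of Casp9 that was higher in Yaa and is named because it was the only call, and 1065 had an unadjusted p under 0.05 (4.73%). Of the 9 member probe sets, 7 passed the filter on low signals, and 0 of these 7 were called or had an unadjusted p under 0.05. Under the alternatives given below, 0 members were called, but up to 3 of the 7 had an unadjusted p under 0.05 in limma. That was so without Yaa 2, where 2058 of all 22518 probe sets did. Because the members were chosen on this comparison, nothing is read from these counts. The mean was lower in Yaa than in WT for 8 of the 9, and for 52.3% of all tested probe sets. The median log2 difference of Yaa minus WT was -0.44 over the 9 member probe sets and -0.010 over all tested probe sets. The members' median was -0.79 without Yaa 2 and -0.26 without Yaa 3.

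The lowest of the 8 arrays was Yaa 3 for 4 of the 9 probe sets, Yaa 4 for another 4 and WT 4 for the remaining one. Yaa 2 was the highest array for 5 of the 9. The family's low Yaa means thus rested on Yaa 3 and Yaa 4, whereas Yaa 1 and Yaa 2 lay near or above WT for most members.

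**Figure D1:**
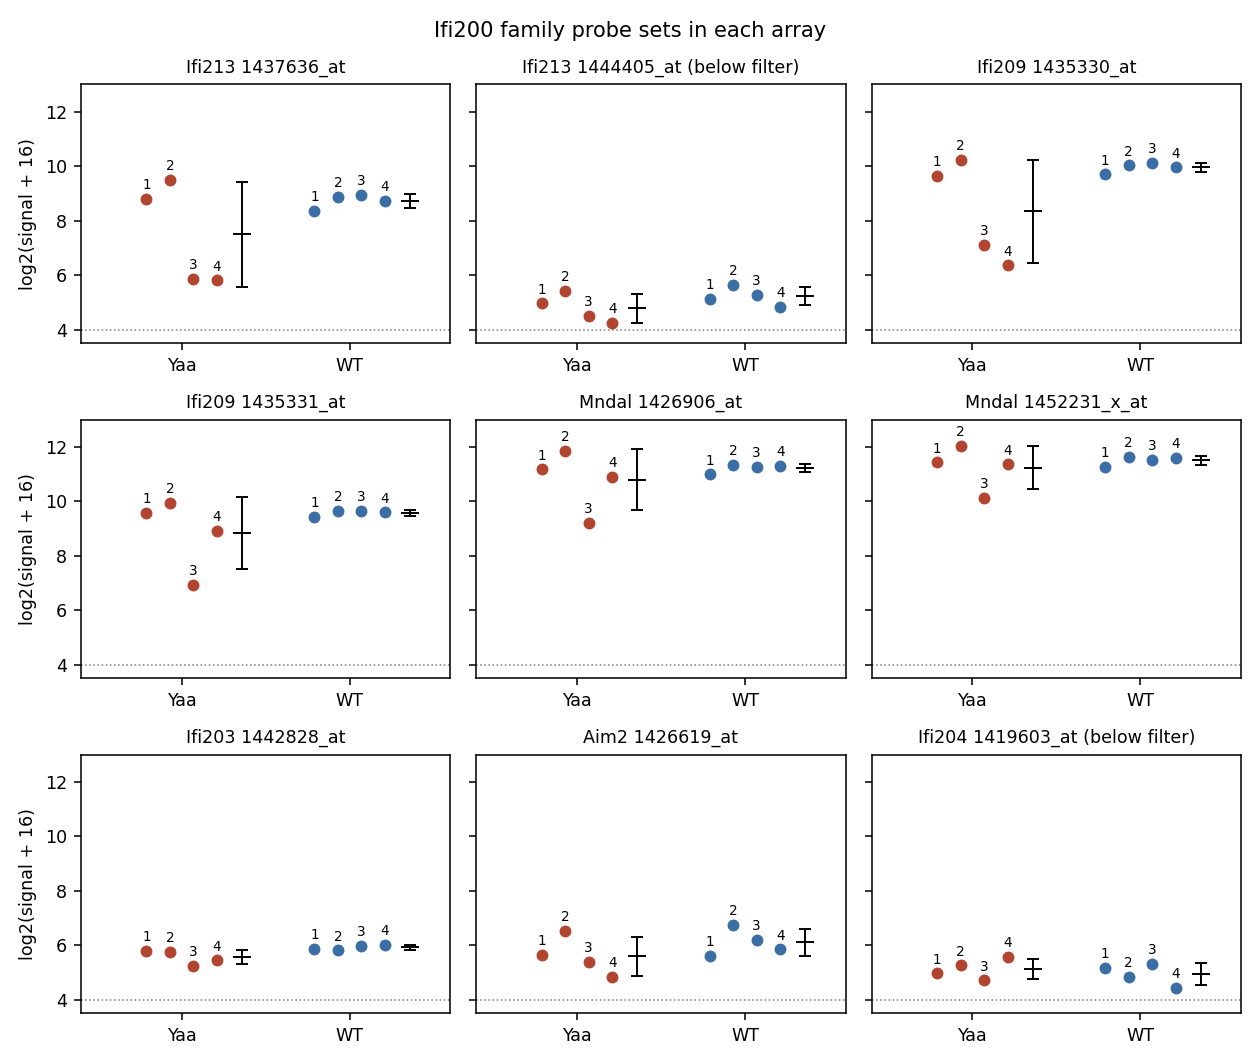
Values of the 9 member probe sets in each array. The vertical axis is log2(signal + 16) after quantile normalization, points are arrays with their replicate number, Yaa in red left of WT in blue, the bars beside them are mean ± SD (n = 4), and the dotted line at 4 is the lowest possible value. Ifi213 (1437636_at) and Ifi209 (1435330_at) are low in Yaa 3 and Yaa 4, and Mndal is low in Yaa 3.

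The sequences just upstream of the family's starts are shown because interferon-responsive genes often carry a repeated GAAA element there, and because Ifi213 and Ifi209, which moved together below, can be compared letter by letter. RefSeq promoter windows of build GRCm38.p6 were found for 7 of the 8 members, all but Ifi204. In the 250 bases before each start, GAAANNGAAA was searched on both strands, as itself or as its complement TTTCNNTTTC. It was present for 5 of these 7 members and for 3.46% of 27025 genes. The capitals below mark the stretch of 10 bases with the element or, for Ifi209, the stretch most like that of Ifi213.
Ifi213: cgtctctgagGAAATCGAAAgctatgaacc
Ifi209: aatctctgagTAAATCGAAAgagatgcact
Mndal: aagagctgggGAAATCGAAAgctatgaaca
Ifi203: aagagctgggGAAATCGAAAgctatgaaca
Ifi211: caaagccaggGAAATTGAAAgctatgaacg
Ifi205: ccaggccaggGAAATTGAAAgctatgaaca

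The Ifi213 stretch lies at chr1:173599326-173599355 on the minus strand and the Ifi209 stretch at chr1:173630770-173630799 on the plus strand, with the capitals beginning 73 and 79 bases before the annotated starts. Those of Mndal (chr1:173880204-173880233), Ifi203 (chr1:173942508-173942537), Ifi211 (chr1:173913064-173913093) and Ifi205 (chr1:174031870-174031899) are all on the minus strand, 36, 35, 37 and 134 bases before their starts. Mndal has a second annotated start, with a match on the opposite strand 54 bases before it, and Ifi203 has a second annotated start with 0 matches before it. Counted from 1 at the 5′ end of the capitals, the Ifi209 stretch differs from that of Ifi213 by G1T and so is no longer the element, and the Ifi211 and Ifi205 stretches differ by C6T. No match was in the Aim2 window. The exact letters GAAATCGAAA occurred in the windows of Ifi213, Mndal and Ifi203 and of 4 other family genes, and in 0.0396% of all windows. Between the windows of Ifi213 and Ifi209, 56.8% of aligned bases were identical, and between those of Mndal and Ifi203 89.3%. The Ifi209 window was most like that of Ifi214, at 94.4%, and the Ifi213 window most like that of Ifi208, at 87.9%, both genes outside the members. The Aim2 window, which has no match, shared 48.9% with that of Ifi209 and 46.7% with that of Ifi213, so 56.8% does not mark a close pair. These are matches of letters in the reference strain's sequence and say nothing on which factor binds there.

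Ifi213 and Ifi209, neighbours in the cluster that encode less studied family proteins, had the widest spread among the Yaa arrays. Ifi213 (1437636_at) had log2 values of 8.81, 9.50, 5.85 and 5.81 in Yaa 1 to 4, against 8.35, 8.88, 8.94 and 8.73 in WT 1 to 4. Yaa 3 and Yaa 4 lay below every WT array, while Yaa 1 lay within the WT range and Yaa 2 above it, so the groups overlapped. Relative to the WT mean, Ifi213 was 7.33-fold lower in Yaa 3 and 7.54-fold lower in Yaa 4.

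As deposited, before any scaling, the Ifi213 signals were 464.1, 733, 29.3 and 36.4 in Yaa 1 to 4 and 312.1, 584.2, 451.3 and 430.5 in WT 1 to 4. The split was thus present in the submitters' own values. The group means were 7.49 ± 1.94 in Yaa and 8.72 ± 0.27 in WT (SD, n = 4 each), a difference of -1.23 ± 0.81 (SE from limma). It was -0.69 without Yaa 3 and -0.67 without Yaa 4, so each of the low arrays carried a large share of the difference. Without Yaa 2 it was -1.90 and without Yaa 1 -1.67.

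The other Ifi213 probe set (1444405_at) was below the filter, with values between 4.24 and 5.43 in Yaa and between 4.84 and 5.63 in WT. Its lowest arrays were again Yaa 4 at 4.24 and Yaa 3 at 4.50, but both lay near the lower limit of the scale and the groups overlapped. The mean difference of -0.44 was -0.65 without Yaa 2 and -0.35 without Yaa 3.

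Ifi209, whose upstream stretch differs from that of Ifi213 by G1T, had 2 probe sets, and they parted in Yaa 4. The first (1435330_at) had 9.66, 10.22, 7.12 and 6.36 in Yaa 1 to 4, against 9.70, 10.03, 10.11 and 9.96 in WT 1 to 4. As for Ifi213, Yaa 3 and Yaa 4 were far below all WT arrays, by 7.13-fold and 12.1-fold relative to the WT mean, and Yaa 2 was the highest array of all. Its means were 8.34 ± 1.89 in Yaa and 9.95 ± 0.18 in WT (SD, n = 4 each), a difference of -1.61 ± 0.78 (SE), which was -1.20 without Yaa 3, -0.95 without Yaa 4 and -2.25 without Yaa 2.

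The second Ifi209 probe set (1435331_at) had 9.57, 9.94, 6.94 and 8.91 in Yaa 1 to 4, against 9.41, 9.64, 9.66 and 9.59 in WT 1 to 4. Yaa 3 was again low, 6.22-fold below the WT mean, but Yaa 4 was 1.59-fold below it. The difference of -0.74 ± 0.56 (SE) was -0.10 without Yaa 3, -0.76 without Yaa 4 and -1.11 without Yaa 2. The first probe set minus the second was 0.089, 0.29, 0.18 and -2.55 in Yaa 1 to 4 and between 0.29 and 0.46 in WT, so in Yaa 4 alone the 2 probe sets of this gene stood apart. A probe set's signal moves with the amount of the transcript and with the letters its probes meet in it, and these cannot be told apart here.

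**Figure D2:**
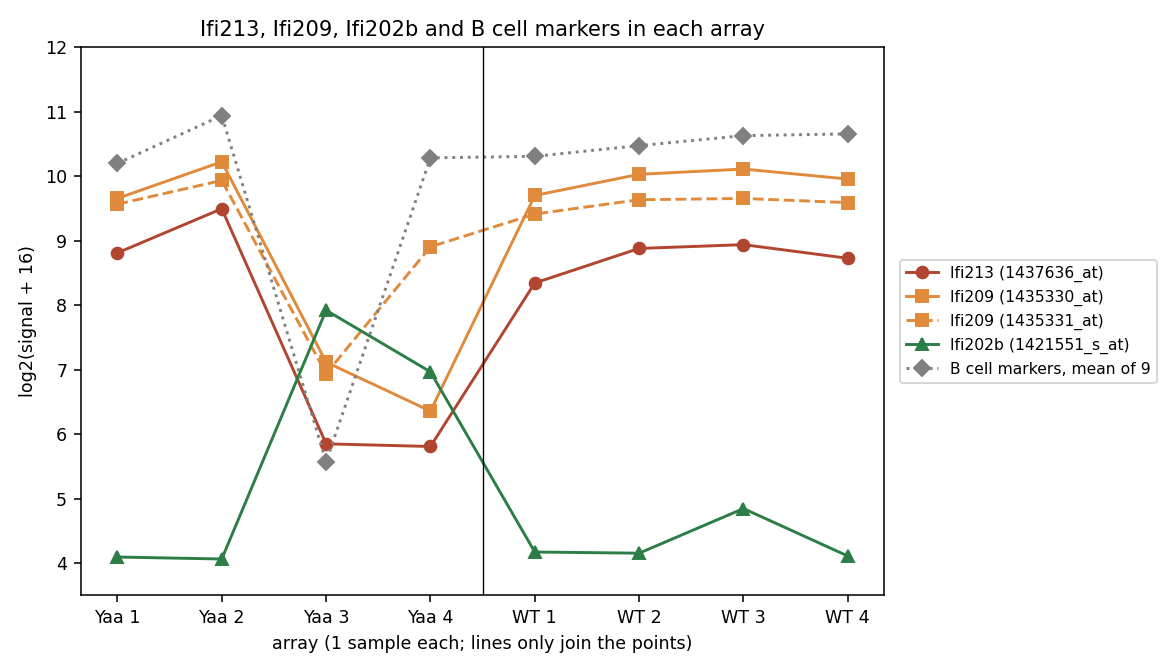
Levels of Ifi213, Ifi209, Ifi202b and the mean of 9 B cell markers in each array. The vertical axis is log2(signal + 16) and the horizontal axis gives the 4 Yaa arrays left of the 4 WT arrays, with lines only joining the points. The B cell markers are low in Yaa 3, at 5.57, whereas Ifi213 and the first Ifi209 probe set are low in Yaa 3 and Yaa 4, the arrays in which Ifi202b is high.

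Mndal, which encodes a nuclear protein with pyrin and HIN domains, differed most in Yaa 3. Its probe set 1426906_at had 11.17, 11.86, 9.22 and 10.90 in Yaa 1 to 4, against 10.98, 11.33, 11.26 and 11.31 in WT 1 to 4. Yaa 3 was 4.02-fold below the WT mean, Yaa 4 lay 1.25-fold below it and just under the lowest WT array, and Yaa 2 was the highest. The mean difference of -0.43 ± 0.47 (SE) was smaller than its error, turned to 0.092 without Yaa 3 and was -0.79 without Yaa 2.

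The second Mndal probe set, 1452231_x_at, whose suffix marks probes that may also bind other genes, had 11.43, 12.02, 10.13 and 11.35 in Yaa 1 to 4, and WT lay between 11.26 and 11.64. It showed the same order with Yaa 3 lowest, 2.58-fold below the WT mean. The difference of -0.27 ± 0.34 (SE) was -0.53 without Yaa 2 and became 0.094 without Yaa 3, so for both Mndal probe sets the sign of the mean difference came from that array, the one with low B and T cell markers.

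Ifi203, an interferon-inducible nuclear protein of blood cells, was the member whose groups did not overlap. Its own probe set (1442828_at) had 5.80, 5.76, 5.25 and 5.45 in Yaa 1 to 4, against 5.86, 5.81, 5.98 and 6.02 in WT 1 to 4. All Yaa arrays lay below all WT arrays, but Yaa 1 and WT 2 were 0.013 apart and every value was close to the filter at 5.38. The difference was -0.35 ± 0.17 (SE), with means of 5.56 ± 0.26 in Yaa and 5.92 ± 0.10 in WT (SD, n = 4 each), and it was -0.41 without Yaa 2 and -0.26 without Yaa 3. Over all tested probe sets, 1.67% had Yaa wholly below WT, and as the members were chosen on this comparison nothing is read from the single case.

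Aim2, the inflammasome-forming DNA sensor, had 5.63, 6.53, 5.38 and 4.83 in Yaa 1 to 4, against 5.61, 6.74, 6.21 and 5.84 in WT 1 to 4 (1426619_at). Yaa 4 and Yaa 3 were the lowest of the 8, and the other Yaa arrays lay within the WT range. Its difference was -0.51 ± 0.37 (SE), with means of 5.59 ± 0.71 in Yaa and 6.10 ± 0.49 in WT (SD, n = 4 each). Without Yaa 2 it was -0.81, and without Yaa 3 -0.45.

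For Ifi204, the DNA sensor related to IFI16, the single probe set (1419603_at) was below the filter. It had 4.97, 5.26, 4.71 and 5.56 in Yaa 1 to 4, against 5.18, 4.84, 5.33 and 4.43 in WT 1 to 4. The groups overlapped throughout, and with a mean difference of 0.18 it was the member whose mean was higher in Yaa, by 0.14 without Yaa 2 and 0.33 without Yaa 3. At such low signal a change of Ifi204 could not have been seen unless it was large.

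**Figure D3:**
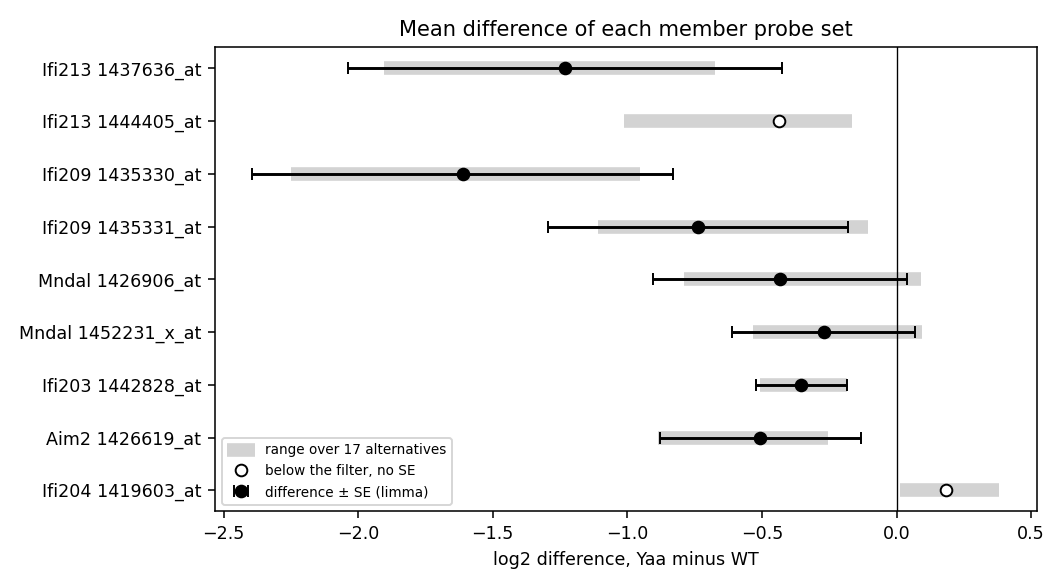
Mean log2 difference, Yaa minus WT, of each member probe set. Black points with bars are differences ± SE from limma, open points are probe sets below the filter, and grey bands give the range over 17 alternative settings, samples left out included. The bands of the 2 Mndal probe sets cross 0 and those of the other 7 do not.

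Probe sets shared between members showed the same split by array in part, and because near-identical family genes share their probes these signals cannot be given to a single gene. The probe set shared by Ifi211 and Ifi205 (1452349_x_at), the only view of these genes beside the next, had 9.12, 9.87, 8.38 and 8.27 in Yaa 1 to 4, against 8.77, 8.93, 9.12 and 9.04 in WT 1 to 4. Yaa 3 and Yaa 4 were below and Yaa 2 was above all WT arrays, with a mean difference of -0.055. IFI205 has been reported to raise the inflammasome adaptor ASC in mouse macrophages.

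The probe set shared by Mndal, Ifi211, Ifi205 and Ifi204 (1452348_s_at) had 9.75, 10.37, 8.24 and 9.56 in Yaa 1 to 4, and WT lay between 9.27 and 9.82. Here Yaa 3 alone was low, as for the probe sets of Mndal itself. Ifi203 shared 3 probe sets with a pseudogene, Ifi203-ps, and with unnamed loci, and they differed in Yaa 4. At 1448775_at the values were 9.46, 10.12, 8.07 and 9.16 in Yaa 1 to 4, against 9.61, 9.87, 9.85 and 10.01 in WT 1 to 4. At 1451567_a_at they were 8.49, 8.97, 7.49 and 9.30 in Yaa 1 to 4, against 8.21, 8.50, 8.47 and 8.39 in WT 1 to 4. Yaa 4 was thus below all WT arrays at the first of these and above all at the second, and Yaa 3 was the lowest at both. The third, 1425008_a_at, had a difference of -0.24, with Yaa 3 and Yaa 4 both at 5.15 and WT between 5.50 and 5.77.

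Ifi202b, a family gene that is not a member, moved the opposite way in the same arrays. Its protein has HIN domains but no pyrin domain and is known to hold back AIM2 signalling, and the gene is known to be hardly transcribed in C57BL/6 mice but transcribed in strains such as NZB. Its probe set (1421551_s_at) had 4.09, 4.06, 7.92 and 6.97 in Yaa 1 to 4, against 4.17, 4.15, 4.85 and 4.11 in WT 1 to 4. A probe set it shares with an unnamed locus (1457666_s_at) had 4.07, 4.37, 8.71 and 7.90 in Yaa 1 to 4, and WT lay between 4.02 and 4.17. Yaa 3 and Yaa 4 stood far above the other 6 arrays in both, which lay near the lower limit, and these are the arrays in which Ifi213 and the first Ifi209 probe set were low. The mean of the first probe set was below the filter, so it entered no test. Whether the mice behind Yaa 3 and Yaa 4 carried the same Ifi200 cluster as the others was not tested.

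Ifi207, the other family gene outside the members with a probe set of its own (1457035_at), had 5.58, 6.64, 6.47 and 5.26 in Yaa 1 to 4, and WT lay between 5.46 and 5.64. Its high arrays were Yaa 2 and Yaa 3, and the difference was 0.41 ± 0.30 (SE). Limma did not call it.

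**Figure D4:**
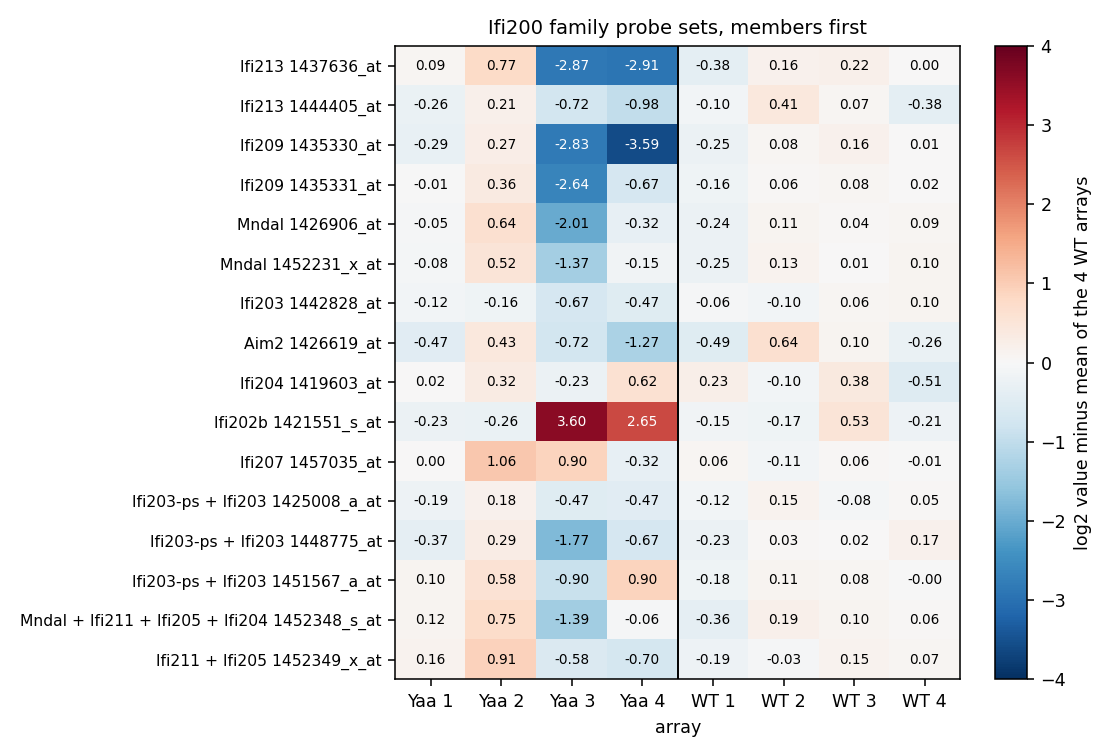
Log2 value of family probe sets minus the mean of the 4 WT arrays, members first and other family probe sets after them. The probe set that Ifi202b shares with an unnamed locus (1457666_s_at) is not drawn. Columns are the 4 Yaa arrays left of the 4 WT arrays, blue is lower and red higher than the WT mean. Ifi213 is at -2.87 in Yaa 3 and -2.91 in Yaa 4, where Ifi202b is at 3.60 and 2.65.

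Set beside the cell markers, the members fell into different patterns. In Yaa 4 the mean of the B cell markers was 10.29 and that of the T cell markers 8.55, close to the WT ranges of 10.31 to 10.66 and 8.37 to 8.85, while Ifi213 was at 5.81. In Yaa 3 the low values of every member except Ifi204 came with low B and T cell markers. There 9 of 9 B cell and 8 of 8 T cell markers lay below all WT arrays, against 3 of 9 and 2 of 8 in Yaa 4. The share of all probe sets below all WT arrays in a single array was not counted. The part of these cells in the members' values in Yaa 3 was not tested. Myeloid and NK cell markers were higher in some or all Yaa arrays. The mean of 11 monocyte and macrophage markers was 8.98, 9.19, 9.25 and 8.69 in Yaa 1 to 4. It lay between 8.56 and 8.64 in WT, below every Yaa array. The mean of 6 NK cell markers was 7.32, 7.71, 8.52 and 7.02 in Yaa 1 to 4 and between 7.02 and 7.42 in WT. The neutrophil marker mean was above all WT arrays in Yaa 1, Yaa 3 and Yaa 4, and that of 9 splenic macrophage markers was 9.88 in Yaa 3, between 8.46 and 8.74 in the other Yaa arrays and between 8.47 and 8.60 in WT. The 8 genes listed as responding to tissue handling had means between 10.92 and 11.39 in Yaa and between 10.39 and 10.58 in WT, but a median difference of 0.11, with 5 higher and 3 lower in mean. Of the 8, 4 were higher at an unadjusted p under 0.05 in limma, against 4.73% of all tested probe sets in either direction. Named after their values were seen, the heat shock genes Hspa1a, Hspa1b and Hsph1 differed by 2.15, 1.84 and 0.92. The other listed genes, Dusp1, Egr1, Jun, Fos and Ier2, differed by 0.22, 0.0021, -0.0017, -0.080 and -0.17. The part of these cells and of handling in the members' values was not tested either.

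The mean of the 7 tested member probe sets was 8.87, 9.41, 7.13 and 7.66 in Yaa 1 to 4, against 8.74, 9.15, 9.10 and 9.01 in WT 1 to 4. By root mean square difference of centred values over the 8 arrays, the 5 genes most like this profile were Tlr1, a receptor for bacterial lipopeptides, at 0.19, Gimap3, a lymphocyte GTPase, at 0.24, Pigr, the transporter of secretory antibodies, at 0.25, Pfn2, an actin-binding profilin, at 0.26, and Zfp827, a zinc finger protein, at 0.27. Tlr1 had 8.07, 8.46, 6.50 and 7.24 in Yaa 1 to 4, against 8.37, 8.69, 8.63 and 8.51 in WT 1 to 4. Of these genes, Pigr is on chromosome 1, where 5.84% of the 10340 tested genes lie. Among the 20 genes nearest to this profile, 1 is on chromosome 1. Among the 20 nearest to single probe sets, 3 are for Ifi213 (1437636_at), 4 for Ifi209 (1435330_at) and 2 for Mndal (1426906_at). These counts were not tested. Chosen after its values were seen, Eps8l1 was the gene nearest to Ifi213, at 0.55, and it had 5.61, 6.67, 4.44 and 4.08 in Yaa 1 to 4 and between 6.27 and 6.87 in WT. For Mndal (1426906_at) the nearest was the ribosomal gene Rpl12 at 0.058, also named after its values were seen.

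The genes flanking the cluster on chromosome 1 give its surroundings. Of the 10 nearest tested genes on each side, 0 of 20 were called by limma, 0 had an unadjusted p under 0.05 and 9 had a lower mean in Yaa, with a median log2 difference of 0.043. Next to Aim2, the chemokine-binding receptor gene Ackr1 differed by 0.018 and Slamf8, a SLAM family receptor of myeloid cells, by -0.21. Ackr1 had 9.26, 7.78, 9.83 and 9.76 in Yaa 1 to 4, and WT lay between 8.98 and 9.49. Slamf8 had 6.07, 6.46, 5.81 and 5.27 in Yaa 1 to 4, and WT lay between 5.67 and 6.57. On the Ifi205 side, the fumarate hydratase gene Fh1 differed by 0.21 and Kmo, an enzyme of tryptophan breakdown, by -0.48. The Kmo difference was the lowest of the 20. Fh1 had 9.21, 9.71, 9.88 and 9.86 in Yaa 1 to 4, and WT lay between 9.41 and 9.53. Kmo had 7.46, 7.84, 6.47 and 7.70 in Yaa 1 to 4, and WT lay between 7.53 and 8.09. Yaa 3 and Yaa 4 thus lay above all WT arrays for Ackr1 and Fh1. Yaa 2 did so too for Fh1 but lay below all WT arrays for Ackr1, so the 2 genes did not share a pattern. The group means hide such differences of single arrays.

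Among genes that act with the family, limma called 0 of those listed. The inflammasome list had 6 of 7 tested genes with a higher mean in Yaa and a median difference of 0.10, and 1 at an unadjusted p under 0.05. That gene was Casp4, the caspase that senses lipopolysaccharide, with 7.69, 8.36, 7.23 and 7.55 in Yaa 1 to 4, against 6.87, 7.29, 7.38 and 6.95 in WT 1 to 4, a difference of 0.59 ± 0.24 (SE). Il1b, the cytokine that caspase-1 matures, differed by 0.61 ± 0.33 (SE) and Nlrp3, another inflammasome sensor, by 0.40 ± 0.34 (SE), both with Yaa 2 and Yaa 3 highest. Casp1 differed by 0.10 ± 0.17 (SE), and Pycard, encoding the adaptor of AIM2 and named after its value was seen, by -0.013.

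Other cytosolic DNA sensing genes had a median difference of -0.13, with 2 of 7 higher and 5 lower in mean and 0 at an unadjusted p under 0.05 in limma. The DNA sensor Cgas differed by 0.43 ± 0.31 (SE), the nucleic acid sensor Zbp1 by 0.39 ± 0.30 (SE), the transcription factor Irf3 by -0.18 ± 0.11 (SE) and the helicase Ddx41 by -0.20 ± 0.18 (SE). Interferon receptor and transcription factor genes had a median of 0.021 over 9 tested genes, 5 of them higher in mean and 0 with an unadjusted p under 0.05. Ifnar2, a chain of the type I interferon receptor, differed by 0.33 ± 0.18 (SE), Irf9 by 0.24 ± 0.17 (SE), the kinase gene Jak1 by -0.13 ± 0.17 (SE) and Irf7 by 0.071 ± 0.17 (SE).

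Interferon-induced genes outside the family were, on their list mean, not low in Yaa 3 and Yaa 4, where Ifi213 and Ifi209 were. Their mean over 17 tested genes was 8.54, 8.04, 8.30 and 8.57 in Yaa 1 to 4, against 8.20, 8.16, 8.10 and 7.94 in WT 1 to 4. Yaa 4 was thus the highest array for this list and the lowest for Ifi213, and Yaa 2 the highest for Ifi213 and below 3 of the WT arrays for the list. Below all WT arrays lay 3 of the 17 in Yaa 3, with Ddx58, a sensor of viral RNA named after its values were seen, at 7.22 in Yaa 3 and between 8.30 and 8.50 in WT, and 0 of the 17 in Yaa 4. Of the 17, 14 had a higher mean in Yaa, with a median difference of 0.30, and 3 had an unadjusted p under 0.05. Rtp4, an interferon-induced antiviral gene, differed by 0.99 ± 0.19 (SE, limma, Benjamini-Hochberg adjusted p = 0.413), and Oas1a, a sensor of double-stranded RNA, by 0.58 ± 0.15 (SE, adjusted p = 0.656 by the same test), each with all Yaa arrays above all WT arrays. Oasl2 differed by 0.56 ± 0.23 (SE), also with all Yaa arrays above all WT arrays, and Oas2 by 0.35 ± 0.16 (SE) with overlapping groups. The share of all tested probe sets with Yaa wholly above WT was not counted, so nothing is read from these cases.

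**Figure D5:**
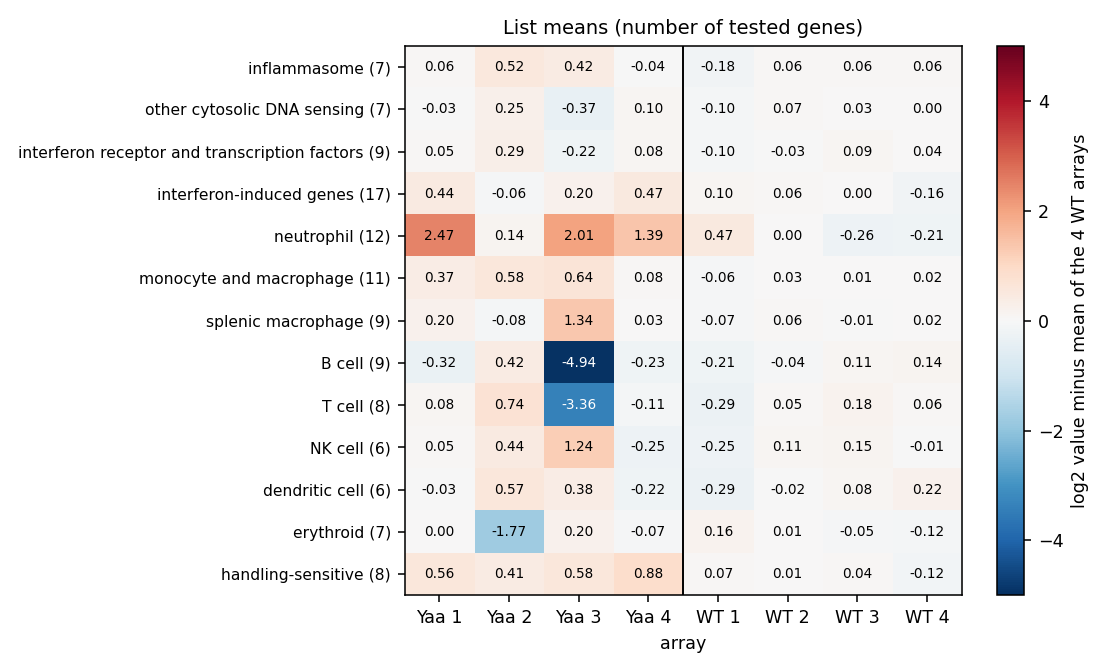
Mean of each gene list in each array minus its mean over the 4 WT arrays, in log2 units, with the number of tested genes in brackets. Columns are the 4 Yaa arrays left of the 4 WT arrays. The B cell list is at -4.94 in Yaa 3 and -0.23 in Yaa 4, and the interferon-induced list is at 0.47 in Yaa 4.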

How the data were processed

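Per the submitters' processing notes, the deposited values are signal intensities from MAS5, 1 linear value per probe set and array. Its version and its scaling target are not given in the sources at hand. The trimmed mean signal (lowest and highest 2% left out) ran from 106 to 162 in Yaa and 143 to 192 in WT, so the arrays were quantile normalized. The deposited intensities were then taken as log2(signal + 16), which understates changes of dim probe sets. The 64 array controls were dropped, and probe sets were tested where their mean log2 signal exceeded the median of all (5.38), which left 22518. Yaa was compared with WT with limma 3.58.1 in R 4.3.3 (lmFit, eBayes with a trend, two-sided, Benjamini-Hochberg over all tested probe sets, threshold 0.05), tested on simulated data. The number of arrays limits the precision.

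Gene names came from the platform annotation, updated to the symbols of GRCm38.p6, with 34945 naming 1 gene. A listed gene was represented by its tested probe set with the highest mean. The members and lists were chosen with earlier results of these data known. Named are all member probe sets, up to 4 genes of each pathway list with the smallest p, the 2 nearest neighbours on each side and the 5 genes most like the members' mean profile; others are named after their values were seen, as stated there. The alternatives were other pseudocounts, scalings and filters, array weights, no trend, a replicate block and each sample left out. Leaving out Yaa 2 and Yaa 3 together was added after seeing the data. Promoters were searched with Python 3.11.15 and aligned with Biopython 1.88, and figures were drawn with matplotlib 3.10.9.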

Additional observations from a re-analysis of the deposited data

Results flagged for a closer look

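Among the values of arrays outside the main measurement, Ifi202b, whose own probe set was below the filter, had 7.92 in Yaa 3 and 6.97 in Yaa 4, above the highest WT array at 4.85. The probe set it shares with an unnamed locus had 8.71 in Yaa 3 and 7.90 in Yaa 4, above the highest WT array at 4.17.

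Single arrays lay far from the other 3 of their group by Dixon's criterion in 5 of the 112 groups examined, where chance gives about 5% of groups. The B cell list mean was 5.57 in Yaa 3, with the next Yaa array at 10.20. The erythroid list mean was 10.35 in Yaa 2, with the next Yaa array at 12.06. Oasl2 was at 8.31 in Yaa 1, with the next Yaa array at 7.44. The inflammasome list mean was 8.12 in WT 1, with the next WT array at 8.35, and Ackr1 was at 9.49 in WT 1, with the next WT array at 9.07. No member probe set was among these, because the low values of Ifi213 and of the first Ifi209 probe set were shared by 2 of the 4 Yaa arrays and those of Mndal did not reach the criterion.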

How the results depend on the processing

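The mean difference of the 9 member probe sets kept its sign under all 17 alternatives, except for both Mndal probe sets, which turned without Yaa 3. Dropping the filter or the trend and adding the replicate block cannot change these differences, so those settings could not have turned a sign. The dim Ifi213 probe set moved to -1.01 with log2(signal + 1). Probe sets called over the whole array numbered 1, against 0 with log2(signal + 1) (1031 at an unadjusted p under 0.05), 143 with array weights (102 higher, 41 lower), 105 without Yaa 2 and Yaa 3 together, and 0 to 30 with 1 sample left out: 0 without Yaa 1 (1024 at an unadjusted p under 0.05), 30 without Yaa 2, 0 without Yaa 3 (1563 at an unadjusted p under 0.05) and 10 without Yaa 4. Listed genes called numbered 0, against 17 with array weights, 15 without Yaa 2 and Yaa 3 together and 0 to 9 with 1 sample left out, where 9 passed without Yaa 2 and 1, Lyz2, named because it was the only such call, without Yaa 4. The same 15 genes passed in both of the first 2 settings, and array weights added Fcgr4 and Lyz2. Most were the neutrophil markers Camp, Elane, Lcn2, Ltf, Mmp8, Mmp9, Mpo, Ngp, S100a8 and S100a9. The others were the heat shock genes Hspa1a, Hspa1b and Hsph1 and the interferon-induced Rtp4 and Oas1a. Array weights gave Yaa 2 and Yaa 3 only 0.22 each, so these 2 settings are much alike and do not back each other independently. The deposited values moved the median of all probe sets to -0.20 and median-centred arrays to -0.11, and the neighbours' median was -0.17 and -0.079 under these. With the deposited values the median of the inflammasome list was -0.12, that of the interferon receptor and transcription factor list -0.19, that of the other cytosolic DNA sensing list -0.32 and that of the interferon-induced list 0.11. The cause of these changes was not tested.

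The replicate numbers did not pair the arrays: deviations of same-numbered arrays correlated between -0.37 and 0.016, and 0 of 8 arrays correlated best with their own number. With the replicate block 0 probe sets were called by limma, while 736 had an unadjusted p under 0.05. Signals of Ifi204, of the second Ifi213 probe set and of Ifi202b in most arrays lay near the lower limit, where small changes cannot be seen.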
